A study of Mus musculus with 56 samples.

Results

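The growth hormone and insulin-like growth factor (IGF) axis of the liver was followed through 10 genes: the receptor gene Ghr, the signal transducer Stat5b, the feedback inhibitors Socs2, Socs3 and Cish, the ligand Igf1, its carrier Igfals, and the binding proteins Igfbp1, Igfbp2 and Igfbp3. These were all the entries with these symbols among the 21935 genes of the liver count table. All 10 had enough reads to be tested, as had 14105 genes in all.

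Growth hormone from the pituitary binds its receptor on hepatocytes, and the kinase JAK2 then phosphorylates STAT5B, which enters the nucleus and switches on Igf1, Igfals and the genes of its own inhibitors. Most circulating IGF-1 comes from the liver and travels in a complex with IGFBP-3 and the acid-labile subunit, the product of Igfals, while IGFBP-1 and IGFBP-2 bind it in smaller complexes and follow fasting, insulin and nutrition. Fibroblast growth factor 21 (FGF21), the hormone that zalfermin mimics, is known to blunt growth hormone signalling in the liver, and in mice the male or female rhythm of growth hormone secretion sets many sex-biased liver genes.

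RNA was sequenced from the livers of 56 male C57BL/6J mice, wild type in every group, 8 in each of 7 groups, which came to the study at 5 to 6 weeks of age. A group on CHOW diet received vehicle (ChowVehicle, called chow vehicle here). The other 6 groups were fed the AMLN diet, a high-fat diet with added fructose and cholesterol, for 36 weeks before dosing. They entered with biopsy-proven steatosis and fibrosis, so that all of them are mice with diet-induced obesity and metabolic dysfunction-associated steatohepatitis (DIO-MASH). They were then dosed under the skin daily for 8 weeks with vehicle (NASHVehicle, called DIO-MASH vehicle here), with zalfermin at 0.05 mg/kg (low dose) or 0.2 mg/kg (high dose), with the GLP-1 receptor agonist semaglutide at 3 µg/kg (low dose) or 120 µg/kg (high dose), or with both agents. The study's methods give the combination as both low doses, 0.05 mg/kg and 3 µg/kg, while the series text describes it as both high doses, so the dose of that group rests on the methods. The inclusion biopsy limits the AMLN groups to mice with established disease, and the diet and the disease cannot be told apart. The paper reports that early in dosing both zalfermin doses raised food intake and high-dose semaglutide lowered it. It found no significant change in intake with low-dose semaglutide or the combination.

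Between 5228187 and 20885786 reads per mouse were counted on genes, with a median of 12206788. Levels are given as CPM, counts relative to the library size of each mouse, with library sizes scaled by the trimmed mean of M-values (TMM), and log2 fold changes, standard errors (SE) and adjusted p-values come from edgeR's quasi-likelihood test with Benjamini-Hochberg adjustment over 14105 genes and a threshold of 0.05. The 6 hepatocyte marker genes tested summed to between 158900 and 247500 CPM in chow vehicle mice but to between 71380 and 92570 CPM in DIO-MASH vehicle mice. The scaling moved all values: by library totals without TMM the median gene of all tested shifted by 0.46 (log2) between DIO-MASH vehicle and chow vehicle, and 91.7% of the genes called were higher, against 52.1% with TMM. In high-dose zalfermin and in the combination, each against DIO-MASH vehicle, that shift was -0.19 and -0.22, and the share of higher calls went from 49.6% to 13.5% and from 48% to 9.89%. Between high-dose semaglutide and DIO-MASH vehicle that share went from 58.9% to 19.9%, with low-dose zalfermin from 89.4% to 69.8%, and in the 5 treated groups against chow vehicle from between 52.8% and 53.8% to between 88.9% and 92.3%. All fold changes here are on the TMM scale, that is, relative to the median gene, and a member whose call depends on this choice is named as such. Low-dose semaglutide mouse 6 was far above the rest of its group in Ghr and Igf1, and results that rest on it are given with and without it. The numbers in the labels fall into 4 series, A to D, of 22, 15, 16 and 3 mice, whose meaning is not given, and D holds vehicle mice only. Values within series A, B and C rest on 1 to 4 mice a group. The only chow vehicle mouse of series B had the fewest reads of all, 5228187.

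The promoters of 3 members hold the letters that STAT5 proteins are known to bind, TTCNNNGAA, within 250 bases before and 50 bases after a RefSeq start site. All promoters of members with these letters are shown, and capitals mark the motif, which reads the same on both strands. Sequences are from RefSeq, build GRCm38.p6, whose promoter table held 14 promoters of 9 members. Socs2 was the member without an entry, so its promoter was not searched. The Igf1 promoter was searched and did not hold these letters.
Cish, chr9:107296629-107296682, plus strand, motifs beginning at the first and at the 12th base of the transcript: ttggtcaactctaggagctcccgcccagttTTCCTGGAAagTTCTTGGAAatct
Socs3, chr11:117969482-117969550, minus strand, motif 154 bases before the start: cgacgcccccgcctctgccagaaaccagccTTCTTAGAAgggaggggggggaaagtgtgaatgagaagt
Igfals, chr17:24877594-24877646, plus strand, motif 236 bases before one start: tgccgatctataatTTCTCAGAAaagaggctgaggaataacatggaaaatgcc
Igfals, chr17:24878143-24878211, plus strand, motif 58 bases before another start: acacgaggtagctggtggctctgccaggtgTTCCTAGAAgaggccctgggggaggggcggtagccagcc
The same letters occurred in 8.30% of all 32851 promoters of that length, so a match alone is common, and it does not show that a factor bound there.

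A further promoter is shown for Igfbp1, which insulin is known to repress through FoxO1, with the FoxO letters CAAAACA in capitals. These letters, searched on both strands, were in 6.28% of all promoters and lay 108 bases before the start of Igfbp1.
Igfbp1, chr11:7197649-7197715, plus strand: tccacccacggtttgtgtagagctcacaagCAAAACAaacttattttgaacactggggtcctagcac
The other FoxO spelling searched, GTAAACA, was in 3.65% of all promoters and, among the members, in 1 of the 3 Igfals promoters alone, 242 bases before the same start as the second Igfals motif shown.

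Per kilobase of exon, the mean level in chow vehicle mice was highest for Igfbp2 (430 CPM per kb), followed by Ghr (85.8), Igf1 (66.4) and Igfals (50.7). Igfbp1 (14), Stat5b (8.81), Igfbp3 (5.47), Cish (4.42), Socs3 (2.73) and Socs2 (1.93 CPM per kb) followed at lower mean levels.

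Between DIO-MASH vehicle and chow vehicle, 6 of the 10 members passed the test, while 55.4% of all 14105 genes did. Ghr, Igf1, Igfals and Igfbp2 fell (26.5% of all genes fell), and Igfbp1 and Igfbp3 rose (28.9% rose). In 3 members, Ghr, Igf1 and Igfals, the mice of both groups did not overlap, as in 16% of all genes. The median log2 fold change was -0.54 over the members and 0.01 over all genes. Because whole liver was sequenced, fewer cells of a type and less RNA per cell cannot be told apart.

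Against DIO-MASH vehicle, high-dose zalfermin changed 5 members (17.2% of all genes passed): Ghr, Igf1, Igfals and Igfbp2 rose (background 8.54%), and Igfbp3 fell (8.68%). The combination changed 4 (20.9% of all genes), with Igf1, Igfals and Igfbp2 higher (10%) and Igfbp3 lower (10.9%). High-dose semaglutide changed 2, Igfals and Igfbp2, both higher (2.43% of all genes passed, and 1.43% rose), and low-dose zalfermin changed 1, Igfbp2, which rose (0.468% of all genes passed, and 0.418% rose). With low-dose semaglutide no member and no gene passed edgeR's test (0% of all genes), although 4 members and 1222 genes had an unadjusted p under 0.05 and DESeq2's Wald test called 32 genes, no member among them. These 5 comparisons share the same 8 DIO-MASH vehicle mice, so their values are not independent of each other.

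**Figure D1:**
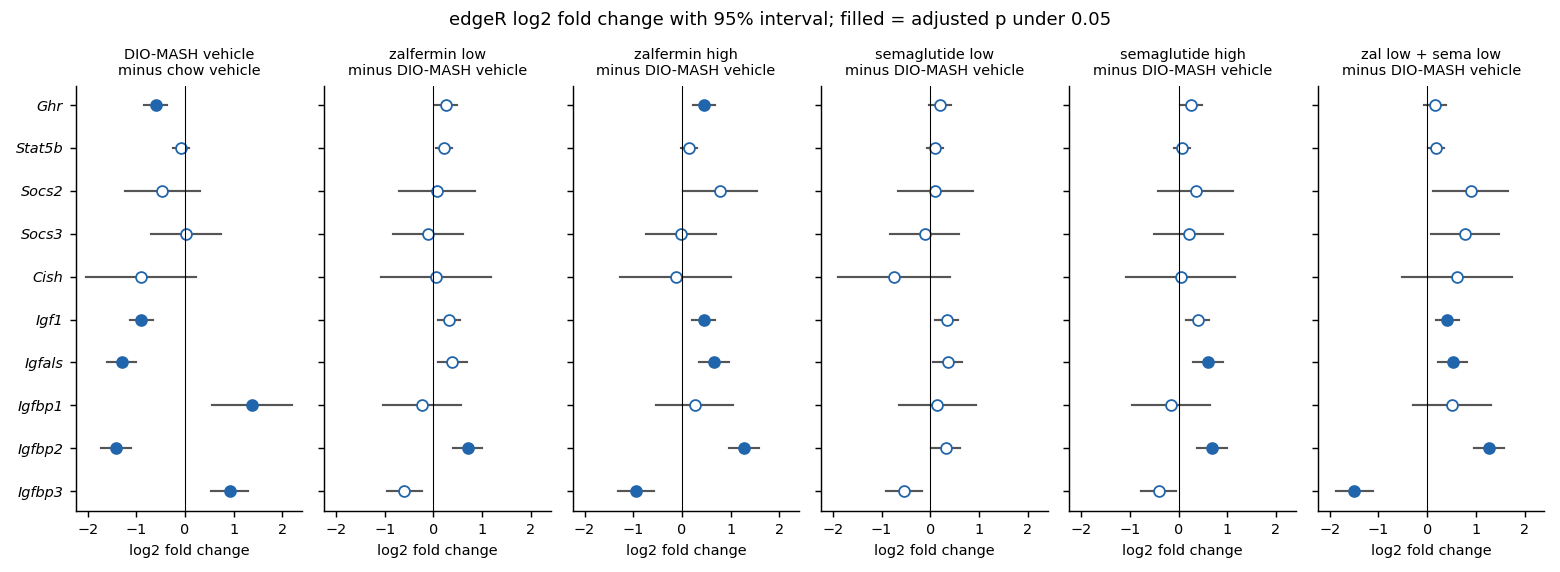
Log2 fold change of the 10 members in the disease comparison and in the 5 treatments against DIO-MASH vehicle, from edgeR, with 95% intervals as lines; filled points passed an adjusted p of 0.05. Igfbp2 and Igfbp3 moved furthest under high-dose zalfermin and the combination, and the intervals of Socs2, Socs3, Cish and Igfbp1 are the widest.

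Ghr, at chr15:3317760-3583492 on the minus strand (GRCm38, GENCODE M21), encodes the growth hormone receptor. Its lowest, median and highest values were 649, 751 and 993 CPM in chow vehicle and 426, 504 and 631 CPM in DIO-MASH vehicle mice, so that no mouse of either group reached the other. The fall was 0.61 on the log2 scale (log2 fold change -0.61, SE 0.12, adjusted p = 1.64e-05). With library totals in place of TMM the value was -0.15 and no longer passed (adjusted p = 0.139), so the fall is one relative to the median gene. Within label series A, B and C the difference of the group means was -0.48, -0.27 and -0.87. These values rest on 2 and 2, 3 and 1, and 2 and 3 mice of DIO-MASH vehicle and chow vehicle.

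High-dose zalfermin brought Ghr to 594, 684 and 809 CPM (lowest, median, highest), which overlapped DIO-MASH vehicle only through the highest vehicle mouse. The rise was 0.44 (SE 0.12, adjusted p = 0.00454). In the combination the mice lay at 488, 560 and 668 CPM and overlapped the vehicle mice widely (log2 fold change 0.16, SE 0.12, adjusted p = 0.338). Low-dose zalfermin gave 524, 574 and 826 CPM, low-dose semaglutide 479, 561 and 853 CPM and high-dose semaglutide 443, 578 and 905 CPM. None of these 3 groups passed against DIO-MASH vehicle. The highest low-dose semaglutide value was that of mouse 6, and without it the highest was 606 CPM and the log2 fold change 0.10 in place of 0.19. In the order of the 7 group means of Ghr, from chow vehicle (777 CPM) through high-dose zalfermin (695), low-dose zalfermin (608), high-dose semaglutide (604), low-dose semaglutide (584) and the combination (569.8) to DIO-MASH vehicle (511), no group differed from the next by the test. Against chow vehicle Ghr was lower in all treated groups but high-dose zalfermin (-0.16, 95% interval -0.39 to 0.06, adjusted p = 0.277), and by library totals none of these differences passed, the smallest adjusted p being 0.0561 with the combination.

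Stat5b (chr11:100780731-100850724, minus strand), the transcription factor that carries the receptor's signal to the nucleus, kept within a narrow band. Its medians ran from 45.3 CPM in chow vehicle to 56.2 CPM in low-dose zalfermin, and every pair of groups overlapped. The log2 fold change between DIO-MASH vehicle and chow vehicle was -0.09 (95% interval -0.26 to 0.08, adjusted p = 0.390), and by library totals it was 0.37 with an adjusted p of 0.000883, which turns its direction. By library totals Stat5b was also above chow vehicle in all 5 treated groups, by 0.32 to 0.47. No treatment passed against DIO-MASH vehicle, where the largest difference was 0.22 with low-dose zalfermin (95% interval 0.05 to 0.38, adjusted p = 0.292).

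Igf1, at chr10:87858265-87937042 on the plus strand, encodes the hormone through which most growth effects of growth hormone are carried. In chow vehicle mice it was counted at 495, 664 and 780 CPM (lowest, median, highest) and in DIO-MASH vehicle mice at 281, 330.1 and 490 CPM. The groups did not overlap, although the highest DIO-MASH vehicle mouse came close to the lowest chow vehicle mouse. Igf1 fell with a log2 fold change of -0.90 (SE 0.12, adjusted p = 1.34e-08), and -0.44 by library totals (adjusted p = 0.000164). Within label series A, B and C it was -1.18, -0.56 and -1.13.

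Under high-dose zalfermin the Igf1 values were 404, 483 and 613 CPM, with a log2 fold change against DIO-MASH vehicle of 0.45 (SE 0.12, adjusted p = 0.00549). The combination gave 417, 475 and 536 CPM and a rise of 0.41 (SE 0.12, adjusted p = 0.00983), which by library totals was 0.20 and did not pass (adjusted p = 0.124). Both groups overlapped the upper end of the vehicle mice. Within label series A, B and C the Igf1 difference was 0.66, 0.24 and 0.46 with high-dose zalfermin and 0.54, 0.16 and 0.60 with the combination. High-dose semaglutide gave 328, 453 and 658 CPM (0.39, SE 0.12, adjusted p = 0.0637), and low-dose zalfermin 362, 402 and 602 CPM (0.32, SE 0.12, adjusted p = 0.247). The high-dose semaglutide difference missed the threshold with all mice and passed without DIO-MASH vehicle mouse 5 (adjusted p = 0.0218), without high-dose semaglutide mouse 7 or 8 (0.0295 and 0.0304), and without low-dose semaglutide mouse 6 or low-dose zalfermin mouse 1 (0.0374 and 0.0476). For low-dose semaglutide the values were 368, 429 and 652 CPM (0.34, SE 0.12, adjusted p = 0.381), and without mouse 6 the highest was 469 CPM and the difference 0.24.

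All 5 treated groups stayed below chow vehicle in Igf1. The gap was -0.45 with high-dose zalfermin (adjusted p = 0.00252), -0.48 with the combination (adjusted p = 0.00139), -0.51 with high-dose semaglutide, -0.56 with low-dose semaglutide and -0.58 with low-dose zalfermin, and each of these passed. By library totals the gap no longer passed for high-dose zalfermin (adjusted p = 0.147), high-dose semaglutide (adjusted p = 0.110), low-dose semaglutide (adjusted p = 0.0796) and the combination (adjusted p = 0.0504). Among the 7 group means only chow vehicle (658 CPM) differed from its neighbour, high-dose zalfermin (483 CPM). The others, from the combination (470.3 CPM) down to DIO-MASH vehicle (353 CPM), followed each other without a difference by the test.

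Igfals (chr17:24865997-24882010, plus strand), the gene of the acid-labile subunit that keeps IGF-1 in the circulation, fell with the diet. Chow vehicle mice had 122, 143 and 224 CPM (lowest, median, highest) and DIO-MASH vehicle mice 49.6, 61.1 and 106 CPM, without overlap. Igfals fell by 1.31 on the log2 scale (SE 0.16, adjusted p = 9.12e-10), and within label series A, B and C the difference was -1.26, -0.83 and -1.51. High-dose zalfermin raised Igfals to 82.9, 106 and 120 CPM, so that the lowest of these mice lay above all vehicle mice but 1 (0.66, SE 0.16, adjusted p = 0.00171).

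The combination raised it to 83.7, 90.8 and 105 CPM (0.52, SE 0.15, adjusted p = 0.0119), which by library totals was 0.30 (adjusted p = 0.0831). High-dose semaglutide gave 61.7, 91.4 and 147 CPM (0.60, SE 0.15, adjusted p = 0.0241), a call that ended without DIO-MASH vehicle mouse 2 or 4 or high-dose semaglutide mouse 2, 3 or 4, with adjusted p = 0.107 when mouse 3 was left out. By library totals that difference was 0.45 and did not pass (adjusted p = 0.0568), and within label series A, B and C it was 0.96, 0.21 and 0.35. The low doses had medians of 78.6 CPM each and did not pass. All treated groups remained below chow vehicle, by -0.65 with high-dose zalfermin to -0.95 with low-dose semaglutide, each past the threshold. No mouse given high-dose zalfermin or the combination reached the lowest chow vehicle mouse.

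**Figure D2:**
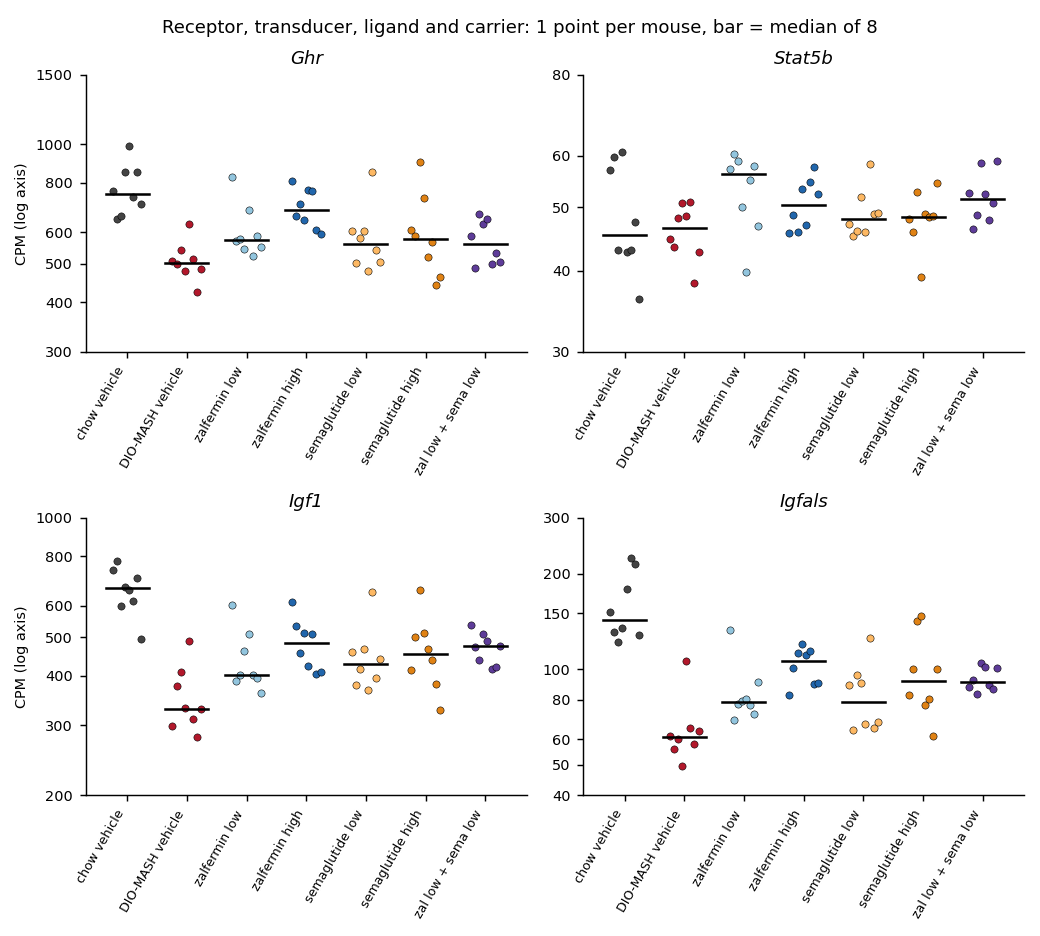
CPM of Ghr, Stat5b, Igf1 and Igfals in each of the 56 mice on a log axis, by group, with the median of 8 mice as a bar. For Igf1 and Igfals the chow vehicle mice lie above all DIO-MASH vehicle mice and the medians of the 5 treated groups lie between theirs, while Stat5b overlaps in all groups.

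The 6 hepatocyte marker genes tested moved in the same comparisons. All 6 fell between DIO-MASH vehicle and chow vehicle (median log2 fold change -1.22), 5 of 6 rose with high-dose zalfermin (0.52) and with the combination (0.60), 2 of 6 with high-dose semaglutide (0.39) and 1 with low-dose zalfermin. Their summed level was 87620 to 147800 CPM under high-dose zalfermin and 95180 to 152600 CPM under the combination. Ghr, Igf1, Igfals and Igfbp2 are made by hepatocytes, and the part of hepatocyte content in their changes was not tested.

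Igfbp2 (chr1:72824503-72852474, plus strand), a binding protein that hepatocytes secrete and that is known to fall in obesity, changed with both diet and treatment. Chow vehicle mice lay at 426, 857 and 1027 CPM (lowest, median, highest) and DIO-MASH vehicle mice at 199.8, 257 and 496 CPM. The groups overlapped only through the lowest chow vehicle mouse and the highest DIO-MASH vehicle mouse. Igfbp2 fell by 1.41 on the log2 scale (SE 0.16, adjusted p = 1.51e-10), and within label series A, B and C the difference was -1.18, -1.70 and -1.21.

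All mice given high-dose zalfermin lay above all DIO-MASH vehicle mice in Igfbp2, at 569.8, 697 and 939 CPM. The same held for the combination, at 554, 765 and 859 CPM. The log2 fold changes were 1.28 (SE 0.16, adjusted p = 3.89e-08) and 1.27 (SE 0.16, adjusted p = 3.75e-08), and 4.80% and 3.98% of all genes were free of overlap in these comparisons. Within label series A, B and C the difference was 1.31, 1.38 and 1.19 with high-dose zalfermin and 1.43, 1.51 and 0.81 with the combination.

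Low-dose zalfermin gave 270.0, 496 and 610.3 CPM (0.70, SE 0.16, adjusted p = 0.0195), and high-dose semaglutide 339.7, 462 and 633 CPM (0.68, SE 0.16, adjusted p = 0.0133). Both groups overlapped the vehicle mice, and both calls missed the threshold by library totals (adjusted p = 0.0929 and 0.0601). The low-dose zalfermin call also ended when only its mice and the vehicle mice were fitted (adjusted p = 0.0537), and without DIO-MASH vehicle mouse 2, 3, 6 or 8 or low-dose zalfermin mouse 1 or 7 (adjusted p = 0.0882 without mouse 1), and the high-dose semaglutide call without its mouse 4 (adjusted p = 0.0534). Low-dose semaglutide mice had 298, 353 and 543 CPM, and the difference of 0.31 (SE 0.16, adjusted p = 0.568) was 0.22 without mouse 6.

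Against chow vehicle, Igfbp2 did not differ by the test under high-dose zalfermin (-0.13, 95% interval -0.44 to 0.17, adjusted p = 0.522) or the combination (-0.14, 95% interval -0.44 to 0.16, adjusted p = 0.521). It was lower by -0.71 with low-dose zalfermin, -0.73 with high-dose semaglutide and -1.10 with low-dose semaglutide, each past the threshold. By library totals the low-dose zalfermin value was -0.37 and missed it (adjusted p = 0.0516). In the order of the group means, chow vehicle (794 CPM), high-dose zalfermin (723 CPM) and the combination (720.1 CPM) followed each other without a difference by the test. The combination differed from the next group, low-dose zalfermin (484 CPM, adjusted p = 0.0159), though not by library totals (adjusted p = 0.0686). Low-dose zalfermin, high-dose semaglutide (477 CPM), low-dose semaglutide (371 CPM) and DIO-MASH vehicle (298 CPM) again followed without a difference between neighbours.

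Igfbp3, at chr11:7206086-7213923 on the minus strand, encodes the main carrier of circulating IGF-1 and in rodent liver is made largely by cells other than hepatocytes. It rose with the diet and fell with high-dose zalfermin and the combination, opposite in sign to Igf1, Igfals and Igfbp2. Chow vehicle mice had 10.5, 17.5 and 25.7 CPM (lowest, median, highest) and DIO-MASH vehicle mice 24.1, 32.9 and 38.8 CPM, with 1 chow vehicle mouse inside the DIO-MASH vehicle range. Igfbp3 rose by 0.91 on the log2 scale (SE 0.19, adjusted p = 5.86e-05), and by 0.74, 0.61 and 1.18 within label series A, B and C.

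Both high-dose zalfermin, at 11.8, 16.6 and 20.1 CPM, and the combination, at 5.47, 11.1 and 18.9 CPM, lay wholly below DIO-MASH vehicle in Igfbp3. The log2 fold changes were -0.95 (SE 0.19, adjusted p = 0.000211) and -1.50 (SE 0.19, adjusted p = 8.80e-08). Within label series A, B and C the values were -0.89, -0.93 and -1.19, and -1.38, -1.78 and -1.86. Low-dose zalfermin gave 14.7, 21 and 27.1 CPM (-0.60, adjusted p = 0.128, and 0.0170 when only these groups were fitted), and low-dose semaglutide 15.6, 21 and 28.9 CPM (-0.54, adjusted p = 0.369, and -0.48 without mouse 6). High-dose semaglutide gave 16.3, 18.9 and 49.7 CPM (-0.41, SE 0.18, adjusted p = 0.238), and without its highest mouse, number 7, the difference was -0.64 and passed (adjusted p = 0.0160).

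Set against chow vehicle, Igfbp3 was lower in the combination (-0.59, SE 0.19, adjusted p = 0.0170), a call that ended without chow vehicle mouse 6 (adjusted p = 0.0592) and by library totals (adjusted p = 0.208). High-dose zalfermin did not differ from chow vehicle by the test (-0.04, 95% interval -0.42 to 0.34, adjusted p = 0.896). By library totals the low-dose zalfermin and low-dose semaglutide groups were above chow vehicle in Igfbp3, by 0.66 and 0.73 (adjusted p = 0.00851 and 0.00339), and on the TMM scale neither passed.

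Markers of stellate cells and of monocyte-derived macrophages moved in the same direction as Igfbp3, and those of Kupffer cells did not fall with treatment. Of 6 Kupffer cell genes, 2 rose and 2 fell with the diet (median log2 fold change -0.21). With high-dose zalfermin 1 rose (median 0.82) and with the combination 3 rose (median 0.95), and none fell. Their summed level had medians of 172 CPM in chow vehicle, 304 CPM in DIO-MASH vehicle, 353 CPM under high-dose zalfermin and 347 CPM under the combination. The summed level of 8 stellate cell genes was 151 to 278 CPM in chow vehicle, 935 to 1549 CPM in DIO-MASH vehicle, 318 to 692 CPM under high-dose zalfermin and 374 to 732 CPM under the combination. Of these 8 genes, 7 were higher in DIO-MASH vehicle than in chow vehicle, 3 fell with high-dose zalfermin and 7 with the combination. The sum of 7 genes of monocyte-derived macrophages had medians of 60.6, 355, 229 and 239.8 CPM in the same order, and that of 8 sinusoidal endothelial genes had medians of 281, 289, 288 and 254 CPM. Of the 7 macrophage genes 6 rose with the diet, 4 fell with high-dose zalfermin and 3 fell with the combination. Of the 8 endothelial genes 3 rose and 1 fell with the diet, none passed with high-dose zalfermin, and 2 fell with the combination. Over all genes 28.9% rose and 26.5% fell with the diet, and 8.68% and 10.9% fell with these treatments. None of these markers was at 0 in all 56 mice, and the part of any of these cells in the Igfbp3 changes was not tested.

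Igfbp1 (chr11:7197782-7202546, plus strand), whose product ties up IGF-1 during fasting and whose gene insulin represses, rose with the diet. Chow vehicle mice had 5.30, 14.5 and 75.5 CPM (lowest, median, highest) and DIO-MASH vehicle mice 28.8, 51.1 and 109 CPM. Of the 8 chow vehicle mice, 7 lay at or under 18.1 CPM, below all DIO-MASH vehicle mice, and mouse 2 of the chow vehicle group lay inside the DIO-MASH vehicle range. Igfbp1 rose by 1.37 on the log2 scale (SE 0.42, adjusted p = 0.00493), and by 0.58, 2.22 and 1.85 within label series A, B and C.

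No treatment passed against DIO-MASH vehicle in Igfbp1. The largest difference was 0.51 with the combination (95% interval -0.29 to 1.3, adjusted p = 0.389), whose mice spread from 26.8 to 281 CPM with a median of 47.3 CPM. It rested on combination mouse 6, the highest, without which it was -0.12 (adjusted p = 0.851). Medians were 67.2 CPM with high-dose zalfermin, 51.8 CPM with low-dose zalfermin, 52.5 CPM with high-dose semaglutide and 33.8 CPM with low-dose semaglutide. All 5 treated groups were above chow vehicle, by 1.14 with low-dose zalfermin (adjusted p = 0.0220, and 0.0503 without chow vehicle mouse 6) to 1.88 with the combination (adjusted p = 0.000536). The low-dose zalfermin value was 1.82 without chow vehicle mouse 2, and that of the combination was 1.25 without combination mouse 6 (adjusted p = 0.0104).

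Cish (chr9:107296026-107302784, plus strand), Socs2 (chr10:95385362-95417180, minus strand) and Socs3 (chr11:117966079-117970047, minus strand) encode proteins that shut down cytokine receptor signalling, and Cish and Socs2 are direct targets of STAT5. In single mice they ranged widely. Cish spanned 1.74 to 85.6 CPM among the chow vehicle mice alone, with a median of 18.6 CPM, and 3.13 to 27.4 CPM in DIO-MASH vehicle, with a median of 16.9 CPM. The log2 fold change of -0.91 was within that spread (SE 0.57, 95% interval -2.03 to 0.22, adjusted p = 0.175), and it was -0.40 without chow vehicle mouse 6. Within label series A, B and C the Cish difference was 2.53, -2.14 and -0.42, so that its sign turned between series.

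No treatment passed in Cish against DIO-MASH vehicle, with log2 fold changes from -0.75 with low-dose semaglutide (SE 0.58) to 0.61 with the combination (SE 0.57). Low-dose semaglutide mice lay at 3.05, 5.49 and 31.9 CPM (lowest, median, highest), and 7 of the 8 at or under 9.15 CPM. Without the highest of them, mouse 4, the difference from DIO-MASH vehicle was -1.46 (adjusted p = 0.584). That group was below chow vehicle (-1.65, SE 0.59, adjusted p = 0.0183). The call ended without chow vehicle mouse 6 (adjusted p = 0.106) and when only these groups were fitted (adjusted p = 0.0657), and without low-dose semaglutide mouse 6 it passed (-1.54, adjusted p = 0.0323). On the opposite strand the exons of Cish overlap those of 2 annotated genes, neither of them in the count table, and whether the counting used strand is not given in the sources used here.

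Socs2, which dampens growth hormone receptor signalling, had medians of 14.5 CPM in chow vehicle, 12.1 CPM in DIO-MASH vehicle, 20.7 CPM under high-dose zalfermin and 20.9 CPM under the combination. The combination mice spread from 4.43 to 49.2 CPM and enclosed the whole DIO-MASH vehicle range of 7.23 to 21.9 CPM. The difference was 0.90 (SE 0.39, 95% interval 0.13 to 1.66, adjusted p = 0.0941), and of all mice left out in turn only combination mouse 6 made it pass (1.05, adjusted p = 0.0442). With high-dose zalfermin it was 0.78 (SE 0.39, adjusted p = 0.169). Within label series A, B and C the Socs2 difference was 1.65, -1.24 and 1.16 with the combination. With high-dose zalfermin the same values were 1.49, -0.03 and 0.81.

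Socs3, a target of STAT3 and inhibitor of interleukin-6 and leptin signalling, had medians between 5.74 and 12.3 CPM in all 7 groups. The highest group was the combination, whose mice ran from 3.21 to 33.1 CPM against 3.37 to 14.5 CPM in DIO-MASH vehicle (0.78, SE 0.36, adjusted p = 0.114, and 0.47 without combination mouse 6). Against chow vehicle the combination did not pass in Socs3 (0.79, adjusted p = 0.0885), but it did by library totals (1.02, adjusted p = 0.0274) and without combination mouse 3 or 5. Chow vehicle and DIO-MASH vehicle were close in Socs3 (0.01, 95% interval -0.71 to 0.73, adjusted p = 0.976), with 0.96, -0.32 and -0.20 within label series A, B and C.

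**Figure D3:**
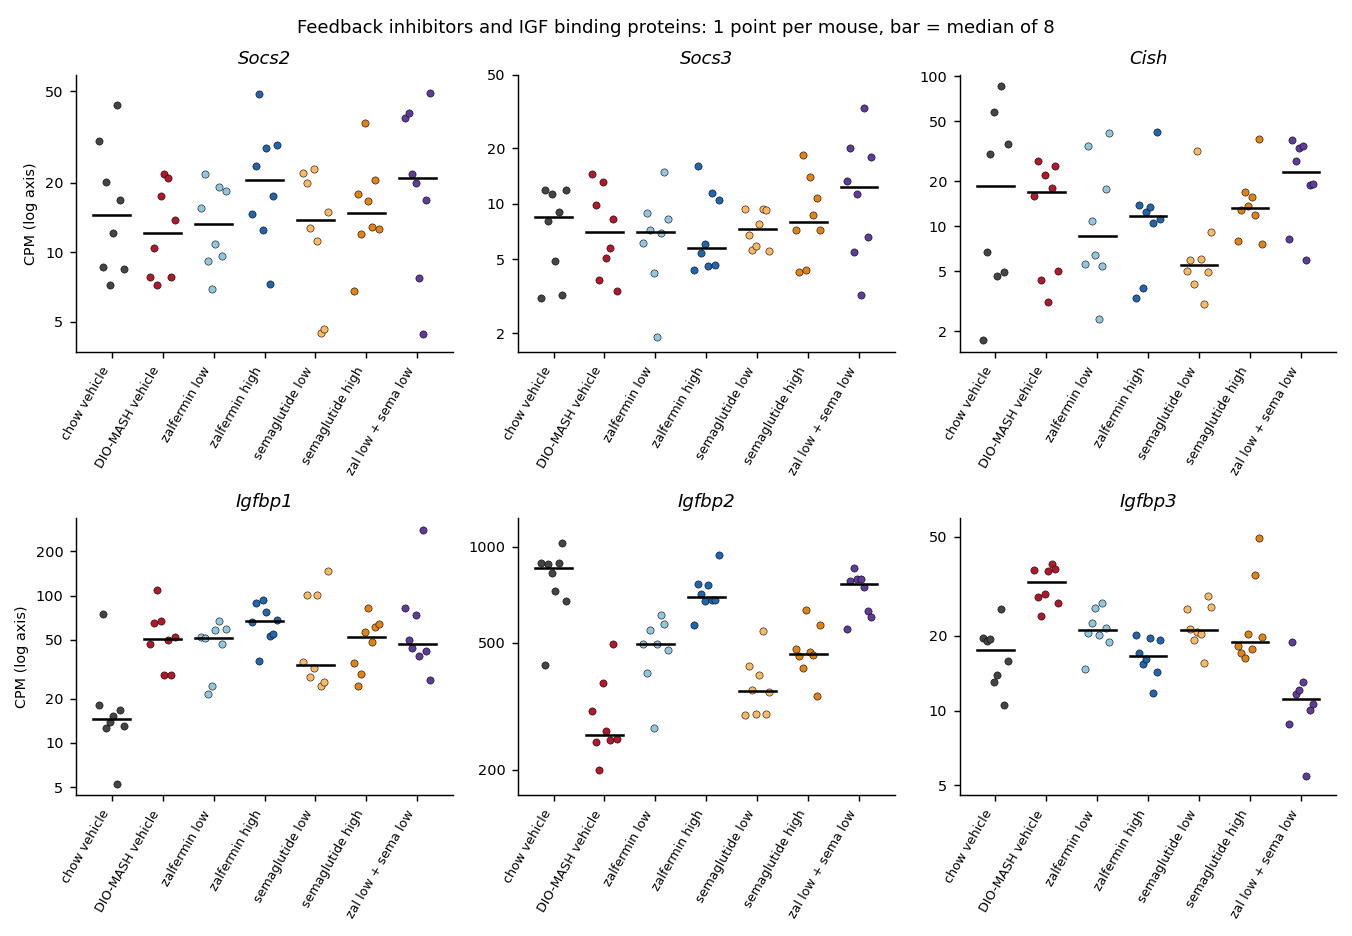
CPM of the 3 feedback inhibitors and the 3 binding proteins in each of the 56 mice on a log axis, by group, with the median of 8 mice as a bar. Socs2, Socs3 and Cish overlap between all groups, whereas in Igfbp2 and Igfbp3 the high-dose zalfermin and combination mice do not overlap the DIO-MASH vehicle mice.

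The spread of the feedback genes between mice of the same group was large for their level. The pooled SD of log2 CPM within groups was 1.27 for Cish, 0.85 for Socs2, 0.81 for Igfbp1 and 0.78 for Socs3. Of the 4257 genes within 2-fold of the mean level of Cish, 99.7% had a smaller SD, and the same share was 99% for Socs2, 99.2% for Igfbp1 and 97.0% for Socs3. By contrast, the SD was 0.23 for Ghr, 0.24 for Igf1 and 0.17 for Stat5b, near the medians of genes at their levels (0.23, 0.22 and 0.20). Igfals (0.31), Igfbp2 (0.32) and Igfbp3 (0.38) stood between. The feedback genes were counted at 15 reads or more in every mouse, and the correlation of log2 CPM with log2 depth within groups was 0.15 for Cish, 0.25 for Socs2 and 0.02 for Socs3.

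**Figure D4:**
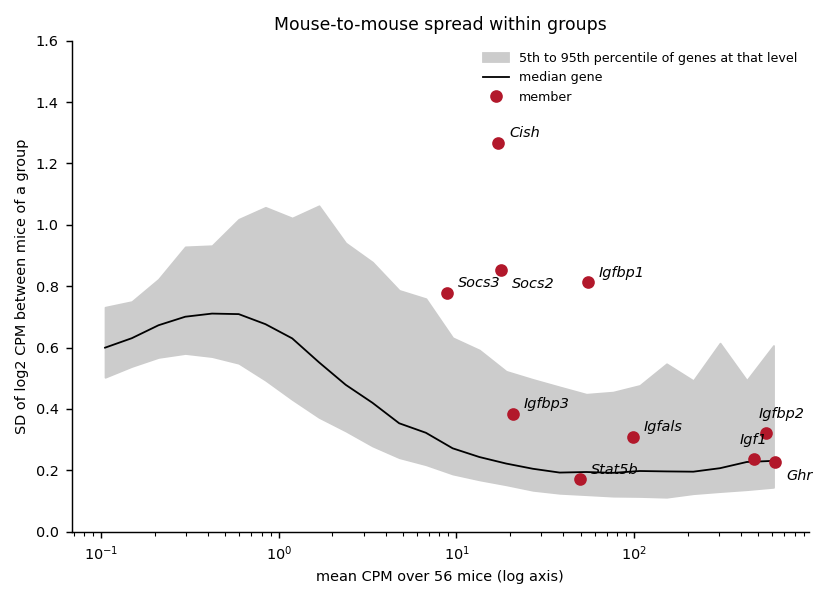
Pooled SD of log2 CPM between mice of the same group against mean CPM over 56 mice (log axis), with the median of genes at each level as a line, their 5th to 95th percentile in grey and the 10 members as points. Cish, Socs2, Socs3 and Igfbp1 lie above the grey band, at SDs of 1.27, 0.85, 0.78 and 0.81.

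When each mouse was expressed as its deviation from the mean of its group, the receptor, ligand and carrier varied together. Across the 56 mice, Pearson's r was 0.72 between Ghr and Igf1 (Spearman's rho 0.61), 0.69 between Ghr and Igfals (rho 0.58) and 0.56 between Igf1 and Igfals (rho 0.43). In a permutation test with 100000 permutations of mice within groups, two-sided and adjusted over the 45 pairs of members, adjusted p was 0.000225, 0.000225 and 0.0018 for r, and 0.00045, 0.00045 and 0.0278 for rho. The first 2 rest on the smallest p for r that these permutations can give, 1e-05. Without the 2 mice farthest from the median of the first gene, r was 0.63, 0.61 and 0.45, and with the number series of the labels also removed it was 0.68, 0.68 and 0.57. By library totals r was 0.59, 0.57 and 0.41. The share of all gene pairs with such values was not computed. Genes outside the axis also reached them with Igf1, as Pzp did with 0.71 within groups, so they are not particular to the axis. The sign was positive within 7 of 7 groups for both Ghr pairs and within 6 of 7 for Igf1 and Igfals.

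In 4 groups, 1 mouse was high in all 3 genes. DIO-MASH vehicle mouse 5 had 631 CPM of Ghr, 490 CPM of Igf1 and 106 CPM of Igfals. Low-dose zalfermin mouse 1 had 826, 602 and 133 CPM, low-dose semaglutide mouse 6 had 853, 652 and 125 CPM, and high-dose semaglutide mouse 3 had 905, 658 and 142 CPM. Each was the highest of its group in Ghr and Igf1. High-dose zalfermin mouse 1 was also the highest of its group in both, at 809 and 613 CPM, but the lowest in Igfals, at 82.9 CPM. Without low-dose semaglutide mouse 6, r was 0.68 for Ghr and Igf1, 0.65 for Ghr and Igfals, and 0.50 for Igf1 and Igfals.

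One further pair passed, with the opposite sign: mice with more Cish than their group had less Igf1 (r = -0.40, permutation test, adjusted p = 0.0300, rho = -0.41, adjusted p = 0.0339). The value was -0.39 without the 2 farthest mice and -0.29 by library totals, and r was positive within 2 of the 7 groups. It was -0.38 without low-dose semaglutide mouse 6 and -0.33 with the label series removed. In both of these last settings 3 pairs of members passed in place of 4, and r was smallest in size for Cish and Igf1 among the 4. On the TMM scale Socs2 did not pass with any other member. By library totals its r with Igfbp3 was 0.40 in place of 0.34, and which pairs passed in that setting is not given here.

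**Figure D5:**
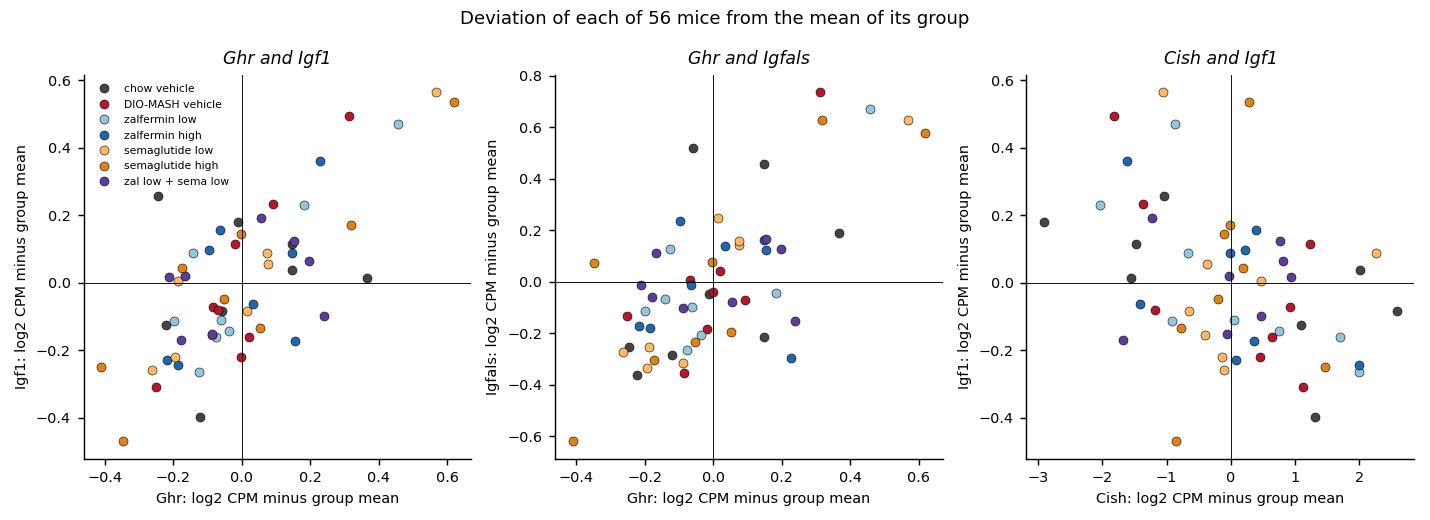
Log2 CPM of each of the 56 mice as its deviation from the mean of its group, for Ghr and Igf1, Ghr and Igfals, and Cish and Igf1, coloured by group. The points rise to the right in the first 2 panels (r = 0.72 and 0.69) and fall in the third (r = -0.40).

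Over all 56 mice, among 11875 genes with a mean of 1 CPM or more, the genes most like Igf1 in log2 CPM were Pzp, a secreted protease inhibitor (r = 0.86), Gm4788 (r = 0.83) and Klkb1, the gene of plasma prekallikrein (r = 0.83). With group means removed, their r with Igf1 was 0.71, 0.69 and 0.64. Those most like Socs2 were Zfp397 (r = 0.57), Cbfb (r = 0.56) and Smad9 (r = 0.56), with 0.52, 0.73 and 0.60 once group means were removed. These values share groups, libraries and depth and are given as a description.

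Among the treatments themselves, Igfbp2 and Igfbp3 were the members that differed by the test with all mice. The combination was above low-dose zalfermin in Igfbp2 by 0.57 (SE 0.16, adjusted p = 0.0159) and below it in Igfbp3 by -0.90 (SE 0.19, adjusted p = 0.00193), 2 members where 6.62% of all genes passed (3.27% higher, 3.35% lower). By library totals the Igfbp2 value was 0.46 and did not pass (adjusted p = 0.0686). Against low-dose semaglutide the same 2 members passed (4.21% of all genes, 1.93% higher and 2.28% lower), with 0.96 for Igfbp2 (adjusted p = 8.77e-05) and -0.96 for Igfbp3 (adjusted p = 0.00139), and without mouse 6 the values were 1.06 and -1.02. Cish also passed there when low-dose semaglutide mouse 4 was left out (2.08, adjusted p = 0.0447, in place of 1.36, adjusted p = 0.192). The Igfbp2 ranges of these groups did not overlap, as in 0.340% of all genes. Against high-dose semaglutide they passed again (1.89% of all genes, 0.858% higher and 1.03% lower), with 0.59 for Igfbp2 (adjusted p = 0.0275) and -1.09 for Igfbp3 (adjusted p = 0.000523). The Igfbp2 call against high-dose semaglutide ended without high-dose semaglutide mouse 6 or 7 or combination mouse 3, 4, 5 or 6, with adjusted p up to 0.0870, and by library totals (0.50, adjusted p = 0.0715). The share of higher calls among all genes went by library totals from 49.4% to 17.4%, from 45.8% to 13.6% and from 45.5% to 18.7% in these 3 comparisons.

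No member differed by edgeR's test between the combination and high-dose zalfermin (0.503% of all genes did), where 3 members had an unadjusted p under 0.05 and DESeq2's Wald test called 0 members. The Igfbp3 difference was -0.55 (95% interval -0.93 to -0.17, adjusted p = 0.207), and that of Igfbp2 was -0.01 (95% interval -0.31 to 0.30). High-dose zalfermin was above low-dose zalfermin in Igfbp2 (0.58, SE 0.16, adjusted p = 0.0350, with 1.84% of all genes passing, 0.447% higher), a call that any 1 of 8 mice of these groups ended when left out, with adjusted p up to 0.116. By library totals it was 0.51 and did not pass (adjusted p = 0.0768), and the share of higher calls went from 24.2% to 13.5%. High-dose zalfermin was above low-dose semaglutide in Igfbp2 (0.96, adjusted p = 7.29e-05, 5.20% of all genes passing, 2.14% higher), without overlap of the mice (0.362% of all genes), and also in Ghr when mouse 6 was left out (0.35, adjusted p = 0.0370), and the share of higher calls went by library totals from 41.1% to 18.3%. Between both high doses Igfbp2 differed by 0.60 (adjusted p = 0.0562, and 0.0337 without low-dose semaglutide mouse 6), and none of the members passed (0.447% of all genes did).

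High-dose and low-dose semaglutide did not differ in any member or gene by edgeR's test, nor by DESeq2's, although 549 genes had an unadjusted p under 0.05. For the low doses, the combination was compared with the sum of both single effects on the log2 scale. No member departed from that sum by edgeR's test or by DESeq2's (0.0142% of all genes did by edgeR's), and no member had an unadjusted p under 0.05. The departure was 0.26 for Igfbp2 (95% interval -0.17 to 0.69), -0.36 for Igfbp3 (95% interval -0.88 to 0.16), -0.25 for Igf1 (95% interval -0.58 to 0.09) and 1.01 for Socs3 (95% interval 0.01 to 2.02, adjusted p = 0.753). Without low-dose semaglutide mouse 6 these values were 0.36, -0.42, -0.15 and 1.06, none past the threshold, and the unadjusted p for Socs3 was 0.0483. With all mice the Socs3 interval leaves out 0 although its unadjusted p was not under 0.05. The intervals given are normal ones and somewhat narrower than the test.

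Set against the same 8 chow vehicle mice, 3 members differed with high-dose zalfermin, where 37.2% of all genes did. Igf1 and Igfals were lower (17.6% of all genes) and Igfbp1 was higher (19.7%), and Igfals alone of the members was free of overlap (4.89%). With the combination 5 differed (32.4%), of which Ghr, Igf1, Igfals and Igfbp3 were lower (15.0%) and Igfbp1 higher (17.4%), with Igfals again free of overlap (2.65%). With low-dose zalfermin 5 differed (47.5%): Ghr, Igf1, Igfals and Igfbp2 were lower (22.5%) and Igfbp1 was higher (25.1%). Low-dose semaglutide differed in 6 (45.6%), the same 4 and Cish being lower (21.3%) and Igfbp1 higher (24.4%). High-dose semaglutide also differed in 6 (39.9%), with Ghr, Igf1, Igfals and Igfbp2 lower (18.6%) and Igfbp1 and Igfbp3 higher (21.3%). The Igfbp3 call with high-dose semaglutide ended without chow vehicle mouse 4, 5 or 7 or high-dose semaglutide mouse 6 or 7 (0.50, adjusted p = 0.0303, and 0.256 without mouse 7).

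Genes outside the axis that growth hormone is known to set were read from lists written from general knowledge, but with earlier results of these data known. These lists are therefore a description and no independent test. Their counts stand against 28.9% of all genes that rose and 26.5% that fell with the diet, 8.54% and 8.68% with high-dose zalfermin, and 10% and 10.9% with the combination. Counts by library totals stand against another background of the 14105 genes. In that setting 8537 genes rose and 773 fell with the diet. With high-dose zalfermin 496 rose and 3183 fell, and with the combination 444 rose and 4044 fell. Of 17 male-biased liver genes that depend on growth hormone, 10 fell and 1 rose between DIO-MASH vehicle and chow vehicle (median log2 fold change -1.17), where 55.4% of all genes passed in either direction. Those with the smallest adjusted p were Gstp1, a glutathione transferase (-1.54, adjusted p = 1.3e-09), Susd4, a complement regulator (-2.77, adjusted p = 6.09e-08), and Cyp7b1, an oxysterol hydroxylase (-1.66, adjusted p = 5.77e-07). With the combination, 7 of the 17 fell and none rose (median -0.89, against -0.03 over all genes), and by library totals 9 fell. By library totals 9 fell and 3 rose with the diet.

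Cyp4a12a was at 181 ± 101 CPM in DIO-MASH vehicle and 19.8 ± 9.91 CPM in the combination (SD, n = 8, log2 fold change -3.19, edgeR adjusted p = 4.96e-08). Its near copy Cyp4a12b moved from 81.2 ± 33.1 to 7.15 ± 5.25 CPM (-3.55, edgeR adjusted p = 8.80e-08), and the split of reads between these copies is uncertain. Selenbp2 went from 33.9 ± 18.3 to 7.65 ± 4.42 CPM (-2.18, edgeR adjusted p = 0.000292). High-dose zalfermin lowered 2 of the list, Cyp4a12a (-1.98) and Cyp4a12b (-2.04), and raised 2, Mup3 (1.36), a major urinary protein gene of a family of near copies, and Cyp7b1 (0.93), and by library totals it lowered 6 and raised 2. No gene of the list passed with either low dose or with high-dose semaglutide.

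Of 16 female-biased liver genes that depend on growth hormone, 10 rose and none fell with the combination (median log2 fold change 2.23), and 8 rose and none fell with high-dose zalfermin (1.22). By library totals the counts were 9 higher and 1 lower, and 7 higher. Slc22a26, an organic anion transporter, went from 1.37 ± 0.757 CPM in DIO-MASH vehicle to 10.7 ± 6.14 CPM with high-dose zalfermin (2.90, edgeR adjusted p = 3.53e-05) and 19.9 ± 7.47 CPM with the combination (3.80, edgeR adjusted p = 2.22e-07; SD, n = 8). Cyp17a1, a steroid hydroxylase, went from 14.7 ± 8.08 CPM to 87.8 ± 37.5 and 73.1 ± 35.5 CPM (SD, n = 8). High-dose semaglutide and low-dose zalfermin each raised 1 gene of the list, Cyp17a1 (1.24 and 1.80). Between DIO-MASH vehicle and chow vehicle, 4 of the 16 rose and 5 fell, a share near the 55.4% of all genes that passed, and by library totals 6 rose and 2 fell.

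Of 10 transcription factors linked to growth hormone status, 6 fell with the diet (26.5% of all genes fell), 4 rose with high-dose zalfermin (8.54% rose), 3 with the combination (10% rose) and 1 with high-dose semaglutide (1.43% rose). By library totals these counts were 1 lower and 1 higher with the diet, and 2 higher each with high-dose zalfermin and the combination. Hnf4a, a master regulator of hepatocyte genes, fell by 1.19 on the log2 scale with the diet (edgeR adjusted p = 3.91e-10) and was at 439.6 ± 63.6 CPM in DIO-MASH vehicle, 683 ± 107 CPM with high-dose zalfermin and 766 ± 109 CPM with the combination (SD, n = 8). Cux2, which is female-specific in adult mouse liver, rose with the combination from 0.486 ± 0.253 to 3.39 ± 3.43 CPM (2.87, edgeR adjusted p = 0.00456; SD, n = 8), with an SD as large as the mean.

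Of 15 further IGF ligands, receptors, binding proteins and proteases, 7 rose and 3 fell with the diet (55.4% of all genes passed), and 1 rose and 5 fell with the combination (20.9% passed). High-dose zalfermin raised 3 and lowered 1 (17.2% passed), and high-dose semaglutide raised 1, Igfbp4. By library totals 8 rose and 1 fell with the diet, 1 rose and 3 fell with high-dose zalfermin, and 6 fell with the combination. Igfbp4, the most abundant of those named, fell from 2491 ± 421 CPM in chow vehicle to 1424 ± 217 CPM in DIO-MASH vehicle (-0.81, edgeR adjusted p = 5.72e-09; SD, n = 8). It rose to 2078 ± 223 CPM with high-dose zalfermin (0.55, edgeR adjusted p = 0.000115) and 1826 ± 192 CPM with the combination (0.36, edgeR adjusted p = 0.00974). Igfbp7, which stellate and endothelial cells express, went the other way, from 56.9 ± 16.3 to 193 ± 75.7 CPM with the diet and to 106 ± 27.2 CPM with the combination (SD, n = 8).

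Of 18 JAK-STAT and SOCS genes, 7 rose and 3 fell with the diet, 2 rose and 1 fell with high-dose zalfermin, and 3 rose and 3 fell with the combination. These shares were near those of all genes with the diet (55.4%) and high-dose zalfermin (17.2%), and the combination stood against 20.9%. By library totals 15 rose and none fell with the diet, where 8537 of all 14105 genes rose and 773 fell. In that setting 4 and 8 fell and none rose with these treatments, where 3183 and 4044 of all genes fell. Of 20 acute phase and STAT3-dependent genes, 12 fell with the diet and none rose (26.5% of all genes fell), 5 rose with high-dose zalfermin (8.54%) and 6 with the combination (10%), the fibrinogen genes Fgb, Fga and Fgg having the smallest adjusted p in the diet and combination comparisons. By library totals 7 of the 20 fell and 4 rose with the diet, and 2 and 5 rose with these treatments.

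Of 12 genes regulated by insulin and FoxO1, 4 rose and 3 fell with the diet, 4 rose and 1 fell with high-dose zalfermin, and 1 rose with the combination, where 55.4%, 17.2% and 20.9% of all genes passed; by library totals 7 rose and 1 fell, 2 rose and 1 fell, and 1 rose and 1 fell. The smallest adjusted p with both treatments was that of Ppargc1a, a coactivator of gluconeogenic genes, at 8.84 ± 2.41 CPM in DIO-MASH vehicle, 15.2 ± 2.43 CPM with high-dose zalfermin and 15.1 ± 3.70 CPM with the combination (SD, n = 8). Of FGF21 and its 5 receptor genes, the coreceptor gene Klb and Fgfr4 fell with the diet and rose with high-dose zalfermin and with the combination, by 0.78 and 0.44 and by 0.68 and 0.67 on the log2 scale, and Klb rose with high-dose semaglutide (0.51, edgeR adjusted p = 0.0412). Fgf21 itself rose with the diet and fell with high-dose zalfermin. By library totals 2 of these 6 rose and 2 fell with the diet, 1 rose and 1 fell with high-dose zalfermin, and 2 rose and 1 fell with the combination. Of all these lists, low-dose semaglutide changed no gene by edgeR's test, and low-dose zalfermin changed Cyp17a1 alone.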

How the data were processed

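The deposited table holds raw counts of reads per gene, 1 column per mouse, made by the authors. Per the study's methods, libraries came from a stranded mRNA kit and a NextSeq 500, and STAR aligned the reads to GRCm38. The submitters' processing notes also name Trim Galore 0.6.4 and Salmon 1.9.0. The step that counted reads on genes is not given in the sources used here. The study left out 1 low-dose semaglutide mouse, which the table does not mark, so all 56 mice were used and mouse 6 of that group was also left out.

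Groups came from the treatment labels. Mice are numbered within groups only as names. At least 5 reads in at least 3 mice let a gene into the test (14105 genes), which was 1 edgeR 4.0.16 quasi-likelihood fit of all 7 groups in R 4.3.3, with TMM and no covariates. CPM were computed on TMM-scaled library sizes, with a prior count of 2 on the log2 scale. Intervals are normal 95% intervals from the SE. Alternatives were DESeq2's size factors, library totals without TMM, DESeq2 1.42.0's Wald test, no filter beyond 1 read, a stricter filter (10 reads in 8 mice), label number series in the model, only the groups compared, and each mouse left out. Steps were tested on simulated counts with the same spread for all genes. That spread was below that of Socs2, Socs3, Cish and Igfbp1, so the simulation does not bear on calls in these members. Members, lists and rules were chosen with earlier results of these data known. All members are named, and of each list of other genes at most the 3 with the smallest adjusted p in a comparison, with Cyp7b1 (high-dose zalfermin) added after its value was seen. Gene positions and exon lengths come from GENCODE M21 on GRCm38. For the order of levels, 5 pairs of groups were added after seeing the data. Whether mice of a group shared a cage or litter is not stated.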

Additional observations from a re-analysis of the deposited data

Results flagged for a closer look

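For each member, the highest and lowest mouse of each group of 8 was compared with the nearest other mouse by Dixon's ratio of that gap to the whole range, both on log2 CPM. Of 70 groups tested, 7 held a mouse that stood apart, and chance gives about 1 in 20. Low-dose semaglutide mouse 6 was the highest of its group in Ghr, at 852.8 CPM where the other 7 mice reached 606 CPM, and in Igf1, at 652.0 CPM where they reached 469 CPM. In Igfals, DIO-MASH vehicle mouse 5 had 105.8 CPM where its group reached 65.3 CPM, and low-dose zalfermin mouse 1 had 132.6 CPM where its group reached 90.9 CPM. Low-dose semaglutide mouse 4 had 31.92 CPM of Cish where the other 7 mice reached 9.15 CPM. Chow vehicle mouse 2 was apart in 2 members, with 75.49 CPM of Igfbp1 where its group reached 18.1 CPM, and with 425.7 CPM of Igfbp2 where the next lowest mouse had 678 CPM.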

How the results depend on the processing

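With library totals in place of TMM, the number of members called was 0 for low-dose zalfermin and 0 for high-dose semaglutide, each against DIO-MASH vehicle, and 2 for the combination against DIO-MASH vehicle. It was 1 for the combination against low-dose zalfermin, 1 against high-dose semaglutide and 0 for high-dose against low-dose zalfermin, and 7 pairs of members passed the correlation test in place of 4. Stat5b turned to 0.37 in DIO-MASH vehicle against chow vehicle and to 0.32 in high-dose semaglutide against chow vehicle. When only the groups compared were fitted, 1 member was called for high-dose semaglutide against DIO-MASH vehicle and 1 for high-dose zalfermin against high-dose semaglutide, and DESeq2's Wald test also called 1 in the latter. In all these the cause was not tested. With 1 mouse left out at a time the count ran from 0 to 1 for low-dose zalfermin, 0 to 4 for high-dose semaglutide, 1 to 2 for the combination against high-dose semaglutide, 0 to 1 for high-dose zalfermin against high-dose semaglutide and 0 to 1 for high-dose against low-dose zalfermin. For high-dose zalfermin against low-dose semaglutide it went from 1 to 2 without low-dose semaglutide mouse 6. The counts of the other comparisons stayed within 1.5 times under these alternatives. The number of all genes called, which is the background of these counts, moved more. By DESeq2's Wald test it went from 66 to 211 for low-dose zalfermin, 0 to 32 for low-dose semaglutide and 343 to 516 for high-dose semaglutide, each against DIO-MASH vehicle, from 71 to 176, 266 to 415 and 63 to 143 for the combination against high-dose zalfermin and high-dose semaglutide and for these high doses against each other, and from 2 to 14 for the departure from the sum. By library totals it went from 66 to 43, 2429 to 3679 and 2953 to 4488 for low-dose zalfermin, high-dose zalfermin and the combination against DIO-MASH vehicle, from 594 to 1238, 71 to 33 and 266 to 504 for the combination against low-dose semaglutide, high-dose zalfermin and high-dose semaglutide, from 63 to 128 between the high doses, from 734 to 1260 for high-dose zalfermin against low-dose semaglutide, and from 260 to 407 between the zalfermin doses. With only the groups compared it went to 145 for low-dose zalfermin against DIO-MASH vehicle, to 309, 16 and 126 for the combination against low-dose semaglutide, high-dose zalfermin and high-dose semaglutide, to 391 between the zalfermin doses and to 4 for the departure. With the label series in the model low-dose zalfermin gave 123, the combination against high-dose zalfermin 130 and the departure 1, and with no filter beyond 1 read the combination against high-dose zalfermin gave 38. For single members, 12268 values with 1 mouse left out kept their side of the threshold, 34 lost and 18 gained the call, and under the other alternatives 1502 kept it, 25 lost it, 11 gained it and 2 turned. No paired analysis was run, because mouse numbers within a group are only names and pair no mice. In places the label numbers run in sequence across the groups, and this was not modelled beyond the 4 series. At 8 mice a group, the spread of Socs2, Socs3, Cish and Igfbp1 limits what could be called: their 95% intervals are wider than those of the other members.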
